A study of Mus musculus with 40 samples.

Results

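C1qa, C1qb and C1qc encode the 3 chains of C1q, the recognition subunit of the classical complement pathway, and the granzyme genes encode serine proteases of cytotoxic lymphocytes. They were followed in mouse duodenum, the stretch of gut just after the stomach, after exposure to hexavalent chromium or to 1 of the fungicides captan and folpet. The members were every probe of the deposited count table whose symbol names a C1q chain or starts with Gzm. That gave 6 of 3045 probes and 6 of 2756 symbols, with 1 probe for each of C1qa, C1qb, C1qc, Gzma, Gzmb and Gzme (C1QA, C1QB, C1QC, GZMA, GZMB and GZME in the table's capitals). Of the 6 members, 5 passed the filter on low counts; Gzme had a count of 0 in all 40 libraries. No limit on the Gzme level is given, because few counts from 1 to 5 occur anywhere in the table.

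All libraries came from male B6C3F1 animals, an inbred-strain cross labelled as wild type, whose age the labels do not give. After 28 days the 5 exposed groups had received 180 ppm Cr(VI) in drinking water, 6000 ppm or 12000 ppm captan in the diet, or 6000 ppm or 16000 ppm folpet in the diet, and they were set against a group labelled only as control. Each exposed group held 7 libraries and the control group 5. Material scraped from whole sections of formalin-fixed, paraffin-embedded tissue was read by TempO-Seq, in which adjacent probe pairs are ligated on a transcript, amplified and sequenced. The labels do not tie each library to an animal of its own. The p-values therefore reflect variation among libraries, some of which may be technical. Captan and folpet both hold a trichloromethylthio group on the nitrogen of an imide, which is fused to a partly saturated ring in captan and to an aromatic ring in folpet.

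C1q binds antibody complexes and dying cells and starts the classical complement cascade. Most complement proteins come from the liver, but tissue macrophages are a main source of C1q, and the assembled molecule needs all 3 of its chains. Granzymes are stored in the granules of cytotoxic T cells and natural killer cells and enter target cells with the help of perforin. In the small intestine many such cells lie between the epithelial cells as intraepithelial lymphocytes. Granzyme A is a protease that cuts after basic residues, granzyme B cuts after aspartate and starts apoptosis through caspases, and granzyme E is one of several granzymes found in mice and not in humans.

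The 3 C1q genes lie on chromosome 4, Gzma on chromosome 13, and Gzmb and Gzme on chromosome 14. Promoter sequence is shown for the 4 members below because the results set C1q chains and granzymes side by side. Each line gives the 250 bases before the gene's start, 5′ to 3′ on the gene's own minus strand, from the RefSeq table for GRCm38.p6. The windows are chr4:136886201-136886450 for C1qb, chr4:136892915-136893164 for C1qc, chr13:113100982-113101231 for Gzma and chr14:56262335-56262584 for Gzmb. Capitals mark GAGGAA or its reverse complement TTCCTC, a core bound by the macrophage factor PU.1, in the C1q windows, and TGTGGTT or its reverse complement AACCACA, a core bound by RUNX factors of lymphocytes, in the granzyme windows.
C1qb promoter: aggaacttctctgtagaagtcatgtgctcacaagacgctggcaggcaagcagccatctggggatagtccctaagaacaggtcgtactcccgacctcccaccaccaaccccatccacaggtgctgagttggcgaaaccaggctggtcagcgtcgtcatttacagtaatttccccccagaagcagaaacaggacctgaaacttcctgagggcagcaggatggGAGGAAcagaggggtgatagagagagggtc
C1qc promoter: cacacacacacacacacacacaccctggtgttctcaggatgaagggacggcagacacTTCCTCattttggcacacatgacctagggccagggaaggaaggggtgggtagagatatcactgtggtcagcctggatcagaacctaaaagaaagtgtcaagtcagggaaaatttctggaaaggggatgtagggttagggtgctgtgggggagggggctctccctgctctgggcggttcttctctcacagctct
Gzma promoter: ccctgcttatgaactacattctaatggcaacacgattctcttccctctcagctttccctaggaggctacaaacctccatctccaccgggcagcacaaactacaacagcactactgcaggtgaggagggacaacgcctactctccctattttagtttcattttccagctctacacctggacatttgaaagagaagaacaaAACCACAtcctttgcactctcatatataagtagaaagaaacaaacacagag
Gzmb promoter: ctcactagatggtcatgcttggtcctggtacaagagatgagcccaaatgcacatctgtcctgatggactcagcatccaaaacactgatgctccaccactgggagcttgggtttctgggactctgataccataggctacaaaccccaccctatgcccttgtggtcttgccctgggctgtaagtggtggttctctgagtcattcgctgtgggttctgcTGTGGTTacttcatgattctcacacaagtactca
Both strands were searched for both cores. GAGGAA or TTCCTC occurred once in the C1qb window, with its first base 30 bases before the start, and once in the C1qc window, 193 bases before it, and in neither granzyme window. It occurred in 23.3% of 32851 promoter windows of the same length. TGTGGTT or AACCACA occurred once in the Gzma window, 51 bases before the start, and once in the Gzmb window, 34 bases before it, and in neither C1q window. It occurred in 4.40% of all windows. These cores were chosen after the sequences had been read, so their split between C1q and granzyme windows is not a test. TGTGGT, without the last T, also occurs in the C1qc window. A match describes letters, not binding.

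Total counts ran from 1763440 to 7904819 per library, with 28.5% of all values at 0. Genes of the enzyme-secreting acinar cells of the pancreas took a mean of 53.2% of counts after Cr(VI), 18.3% and 11.7% after 6000 and 12000 ppm captan, 19.6% and 26.3% after 6000 and 16000 ppm folpet, and 49.0% in control. They exceeded 50% in 7 libraries, of which 4 were Cr(VI), 1 was captan 12000 ppm and 2 were control. Replicate numbers are names given in listed order within a group, since the labels carry none. Control replicate 5 stood apart, with 2121824 counts and 1460 probes above 0, and is given by name where a result rests on it. Levels are given in CPM, a probe's count scaled to a fixed library total, on library sizes adjusted by TMM, which limits the weight of a few abundant transcripts. A probe passed, or was called, where edgeR's quasi-likelihood test gave a p under 0.05 after Benjamini-Hochberg adjustment across the 2541 tested probes.

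Gzma was the only member that fell after Cr(VI). It also fell at the higher folpet dose, and did not pass at either captan dose or the lower folpet dose. After Cr(VI) its level was 23.3 CPM in the lowest library, 24.5 CPM at the median and 71.8 CPM in the highest. In the control libraries it was 422, 415, 110, 93.1 and 118 CPM. Every Cr(VI) library lay below every control library, although the controls themselves split into 2 high and 3 lower libraries.

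Gzma averaged 37.5 ± 18.7 CPM after Cr(VI) (SD, n = 7) and 232 ± 171 CPM in control (SD, n = 5). Its log2 fold change was -2.62 ± 0.51 (SE), 6.14-fold lower after Cr(VI), with an edgeR adjusted p of 0.00115. It was 1 of 5 tested members called, where 2.99% of all tested probes were called lower and 0.748% had every Cr(VI) library below every control library. In bulk tissue, fewer cells of a type and less RNA per cell cannot be told apart. Across the 40 libraries Gzma correlated with the acinar share at r = -0.48, and at r = -0.45 once group means were removed. With the acinar share as a covariate the log2 fold change was -2.70 with an edgeR adjusted p of 0.000498. Without the 7 libraries over 50% acinar counts, which left 3 Cr(VI) and 3 control libraries, it was -2.71 with an adjusted p of 0.063, and limma-voom on all libraries gave -2.28 with 0.0835.

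At 16000 ppm folpet, Gzma ranged from 20.8 to 131 CPM with a median of 46.6 CPM, and 6 of 7 libraries lay below every control library. The mean was 55.8 ± 35.3 CPM in the folpet 16000 ppm libraries (SD, n = 7), against 232 ± 171 CPM in control (SD, n = 5). The log2 fold change was -2.06 ± 0.50 with an edgeR adjusted p of 0.00435, a 4.17-fold lower level. The call held in each of 12 fits that left out 1 library, between -2.43 and -1.72.

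At the other doses the Gzma ranges overlapped control. Captan 6000 ppm libraries ran from 52.0 through a median of 178 to 336 CPM, with a log2 fold change against control of -0.28 ± 0.50 and a 95% interval of -1.29 to 0.73. After captan 12000 ppm the range was 65.7 to 500 CPM around a median of 93.6 CPM, and the log2 fold change against control was -0.43 (95% interval -1.44 to 0.58). These intervals leave room for a fall of more than 2-fold, so no difference was detectable with this spread. Folpet 6000 ppm gave the tightest group, 112 to 238 CPM with a median of 178 CPM, and a log2 fold change against control of -0.39 (95% interval -1.40 to 0.61).

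Between the folpet doses, Gzma averaged 55.8 ± 35.3 CPM at 16000 ppm and 177 ± 37.4 CPM at 6000 ppm (SD, n = 7 each). The log2 fold change of -1.66 ± 0.47 did not pass, with an edgeR adjusted p of 0.0611, and it passed once folpet 16000 ppm replicate 3, the highest of its group, was left out (-2.03, adjusted p 0.0266), by DESeq2 (-1.69, adjusted p 0.0031) and when only these 2 groups were fitted (-1.68, edgeR adjusted p 0.00124). Ordered by mean, Gzma levels were lowest after Cr(VI), then increased through folpet 16000 ppm, captan 12000 ppm, folpet 6000 ppm and captan 6000 ppm to control. Each neighbouring pair in that order overlapped in range.

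Gzmb, the caspase-activating granzyme, gave lower counts and no call in any comparison. After Cr(VI) it ranged from 10.3 to 34.3 CPM with a median of 16.2 CPM, and after folpet 16000 ppm from 3.78 to 22.0 CPM with a median of 10.4 CPM. The control libraries had 68.8, 43.2, 36.5, 31.6 and 0 CPM. All 7 folpet 16000 ppm libraries and 6 of 7 Cr(VI) libraries lay below the 4 control libraries with counts, and all lay above control replicate 5, which had none.

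The log2 fold change of Gzmb was -1.69 ± 0.64 for folpet 16000 ppm against control, with an edgeR adjusted p of 0.0744, and -1.08 ± 0.64 for Cr(VI) against control, with 0.362. Leaving out control replicate 5 made the folpet value -1.999 with an adjusted p of 0.0142. Means were 26.0 ± 19.99 CPM after captan 6000 ppm, 24.5 ± 29.2 CPM after captan 12000 ppm and 28.8 ± 7.44 CPM after folpet 6000 ppm (SD, n = 7 each), against 36.04 ± 24.7 CPM in control (SD, n = 5). These 3 groups did not pass, with log2 fold changes of -0.48, -0.57 and -0.33 against control. Without captan 12000 ppm replicate 2, whose 88.2 CPM was the highest Gzmb level of the 40 libraries, the captan 12000 ppm value was -1.36.

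**Figure D1:**
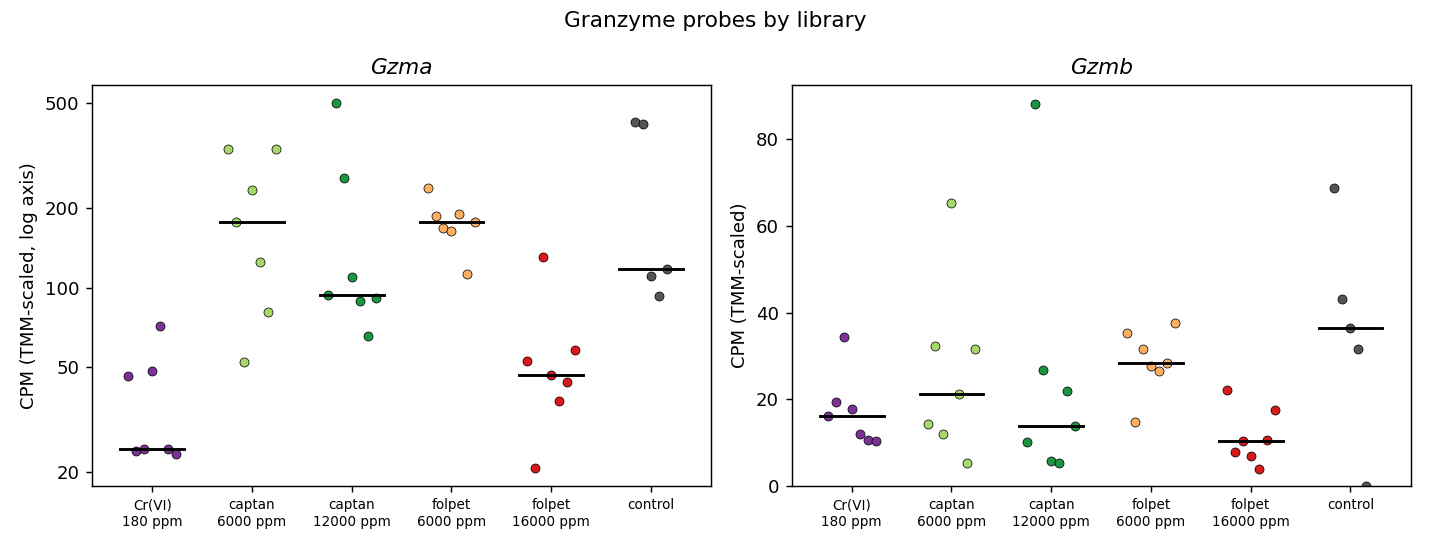
Level of Gzma (left, log axis) and Gzmb (right) in CPM on TMM-scaled library sizes, 1 point per library, with a line at the group median, for Cr(VI), both captan doses, both folpet doses and control. All 7 Cr(VI) libraries have less Gzma than any control library, and control replicate 5 has no Gzmb count.

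The C1q chains followed a different order of agents from Gzma: none passed after Cr(VI), and all 3 fell at 16000 ppm folpet. C1qb, the chain with the most counts, was between 87.2 and 161 CPM in the folpet 16000 ppm libraries, with a median of 127 CPM. Control libraries had 355, 335, 277, 306 and 131 CPM. All folpet 16000 ppm libraries lay below the 4 higher control libraries, and they overlapped only control replicate 5.

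C1qb averaged 131 ± 27.8 CPM at 16000 ppm folpet (SD, n = 7) and 281 ± 88.9 CPM in control (SD, n = 5). Its log2 fold change was -1.11 ± 0.19 with an edgeR adjusted p of 2.94e-05, a 2.15-fold lower level. At this dose 4 of the 5 tested members fell, C1qa, C1qb, C1qc and Gzma, where 4.68% of all tested probes were called lower. The C1qb call held under all 9 alternative settings and in each of 12 fits without 1 library.

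C1qc had 39.2 CPM in the lowest folpet 16000 ppm library, 91.3 CPM at the median and 104 CPM in the highest. Control libraries had 184, 252, 166, 156 and 188 CPM, all above every folpet library; 1.53% of tested probes separated in this way. The log2 fold change of C1qc was -1.15 ± 0.20 with an edgeR adjusted p of 4.78e-05.

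C1qa ranged from 54.0 to 135 CPM at 16000 ppm folpet, around a median of 81.3 CPM, while control libraries had 176, 169, 173, 234 and 47.7 CPM. The folpet libraries lay below 4 of the 5 controls and above the remaining one, replicate 5. The log2 fold change of C1qa was -0.87 ± 0.24 with an edgeR adjusted p of 0.013, and it did not pass without control replicate 4 (-0.69, adjusted p 0.0671).

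After Cr(VI) each C1q chain overlapped control. C1qb was between 163 and 330 CPM with a median of 235 CPM, C1qa between 106 and 162 CPM with a median of 146 CPM, and C1qc between 139 and 234 CPM with a median of 188 CPM. None passed: the log2 fold changes against control were -0.20 for C1qa (95% interval -0.69 to 0.30), -0.23 for C1qb (-0.62 to 0.15) and -0.06 for C1qc (-0.47 to 0.35). Each lower bound lies above a halving, whereas Gzma in the same libraries fell beyond it.

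Captan gave smaller values, and with all libraries in the fit the chain that passed differed with the dose. No chain passed between the captan doses. At 6000 ppm C1qb was 140 to 230 CPM with a median of 165 CPM, below 4 of the 5 control libraries in all 7 captan libraries. Its mean was 173 ± 30.1 CPM after captan (SD, n = 7) and 281 ± 88.9 CPM in control (SD, n = 5), a log2 fold change of -0.70 ± 0.19 with an edgeR adjusted p of 0.017. It was the 1 member called of 5 tested, where 1.38% of all tested probes were called lower. The call did not hold without control replicate 1 (-0.59, adjusted p 0.0761) or replicate 2 (-0.61, 0.0643). C1qa (-0.57, adjusted p 0.17) and C1qc (-0.59, adjusted p 0.0775) did not pass, although every captan 6000 ppm library had less C1qc than every control library, as did 0.472% of probes. Without control replicate 5, C1qa passed at -0.80 with an edgeR adjusted p of 0.0257.

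At 12000 ppm captan, C1qc ran from 96.5 to 138 CPM with a median of 118 CPM, and no library reached the lowest control library at 156 CPM. Its log2 fold change was -0.69 ± 0.20 with an edgeR adjusted p of 0.0283, on means of 117 ± 14.3 CPM after captan (SD, n = 7) and 189 ± 37.3 CPM in control (SD, n = 5). C1qc was the 1 member called of 5 tested, where 1.53% of all probes were called lower and 0.512% had all captan libraries below all controls. Of 12 fits that left out 1 library, 6 lost this call: captan replicate 1 (-0.66), 3 (-0.67), 4 (-0.67), 5 (-0.62) and 6 (-0.64), and control replicate 2 (-0.53). C1qa averaged 98.9 ± 18.4 CPM and C1qb 191 ± 21.5 CPM after captan 12000 ppm (SD, n = 7), with log2 fold changes of -0.70 and -0.56 and edgeR adjusted p-values of 0.0751 and 0.0672. Without control replicate 5 both passed, C1qa at -0.93 (edgeR adjusted p 0.00639) and C1qb at -0.73 (0.00738).

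No member passed by edgeR at 6000 ppm folpet, where 1.61% of tested probes were called lower; 1 of 5, C1qc, had an unadjusted p under 0.05, and DESeq2 and limma-voom each called it. C1qc was 87.7 to 151 CPM with a median of 132 CPM, below every control library, as were 0.866% of probes, and had a log2 fold change of -0.61 ± 0.20 with an edgeR adjusted p of 0.06. C1qb averaged 217 ± 48.9 CPM after folpet 6000 ppm (log2 fold change -0.38) and C1qa 133 ± 40.9 CPM (-0.27; SD, n = 7 each), and both overlapped control.

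**Figure D2:**
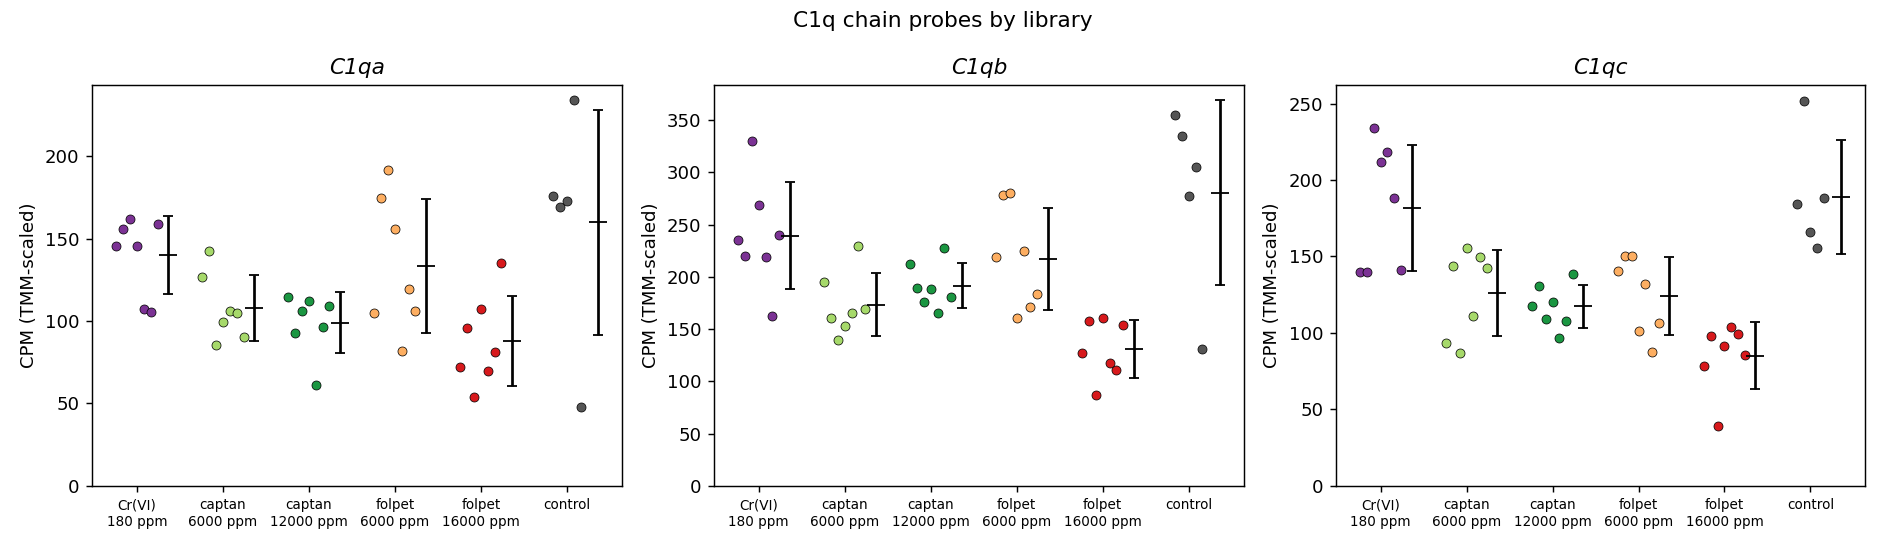
Level of C1qa, C1qb and C1qc in CPM on TMM-scaled library sizes, 1 point per library, with the mean and SD of each group drawn to the right of its points. C1qc of all 7 folpet 16000 ppm libraries lies at or under 104 CPM, below the lowest control library at 156 CPM, while Cr(VI) libraries overlap control for all 3 chains.

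**Figure D3:**
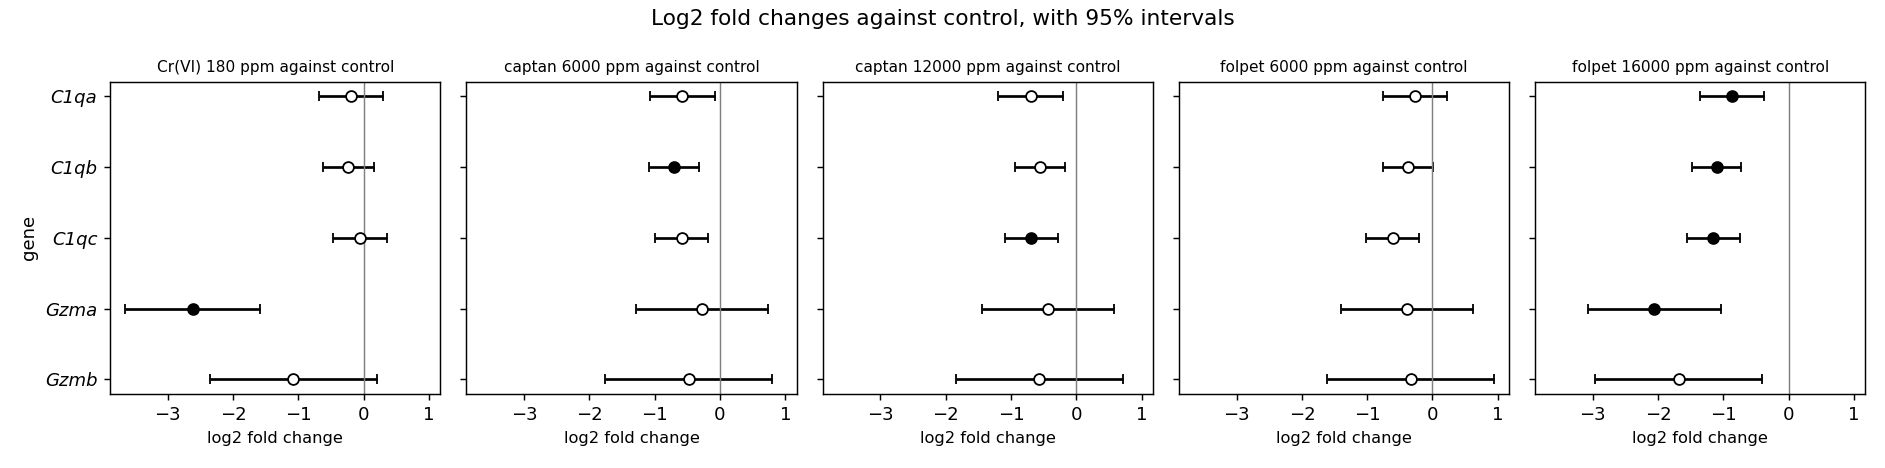
Log2 fold change of each tested member against control with its 95% interval, 1 panel per exposed group, with filled points for an edgeR adjusted p under 0.05 and open points otherwise. Gzma is the filled point after Cr(VI), at -2.62, and 4 members are filled at 16000 ppm folpet. The 5 panels share the 5 control libraries.

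Of the dose steps within an agent, C1qb after folpet was the one that edgeR called, although the log2 fold changes of Gzma and Gzmb between the folpet doses were larger. C1qb averaged 131 ± 27.8 CPM at 16000 ppm and 217 ± 48.9 CPM at 6000 ppm (SD, n = 7 each), a log2 fold change of -0.73 ± 0.18 with an edgeR adjusted p of 0.0153. It was the 1 member called of 5 between the folpet doses, where 1.73% of tested probes were called in either direction. Without folpet 6000 ppm replicate 2 (-0.66, adjusted p 0.0561) or 3 (-0.67, 0.0504), or folpet 16000 ppm replicate 3 (-0.65, 0.0569), the call was lost. C1qa (-0.60), C1qc (-0.54) and Gzmb (-1.35) did not pass between the folpet doses. All 5 members had an unadjusted edgeR p under 0.05 there, as did 268 of the 2541 tested probes. Between the captan doses none of the 5 members passed by edgeR, nor did any of the 2541 tested probes (0%), although 148 probes and none of the members had an unadjusted p under 0.05. DESeq2 called 1 probe and limma-voom none there, and neither called a member. The 5 log2 fold changes for captan 12000 against 6000 ppm lay from -0.15 (Gzma) to 0.14 (C1qb), with no unadjusted p under 0.419.

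At the matched dose of 6000 ppm, no member passed between captan and folpet by edgeR, DESeq2 or limma-voom. All 5 edgeR adjusted p-values were 1 and no unadjusted one was under 0.0708, with 0.157% of tested probes called in either direction. The intervals of captan over folpet on the log2 scale were -0.76 to 0.15 for C1qa, -0.68 to 0.03 for C1qb, -0.35 to 0.40 for C1qc, -0.81 to 1.04 for Gzma and -1.32 to 1.02 for Gzmb. The C1qc interval leaves out a change of 1.5-fold in either direction, while the granzyme intervals are wide enough to hold a 1.5-fold difference. At their higher doses, which differ, C1qc averaged 117 ± 14.3 CPM at 12000 ppm captan and 85.0 ± 22.0 CPM at 16000 ppm folpet, and Gzma 173 ± 158 CPM and 55.8 ± 35.3 CPM (SD, n = 7 each).

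Cr(VI) was then set against the higher dose of each fungicide. The control means do not enter these fold changes, but the control libraries share in the filter, scaling and fitted spread. C1qc was 182 ± 41.1 CPM after Cr(VI) and 85.0 ± 22.0 CPM after folpet 16000 ppm (SD, n = 7 each), a log2 fold change of 1.10 ± 0.19 with an edgeR adjusted p of 7.91e-05. C1qb was 239 ± 51.3 CPM after Cr(VI) and 131 ± 27.8 CPM after folpet 16000 ppm, with 0.87 ± 0.18 and an adjusted p of 0.000561. Every Cr(VI) library lay above every folpet 16000 ppm library for both chains, as did 0.984% of tested probes; the 2 were the members called of 5, where 1.97% of probes were called higher. C1qa (0.67, adjusted p 0.0571), Gzma (-0.56, 0.649) and Gzmb (0.61, 0.717) did not pass between these groups.

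Against 12000 ppm captan, Cr(VI) libraries had less Gzma and more C1qc. Gzma averaged 37.5 ± 18.7 CPM after Cr(VI) and 173 ± 158 CPM after captan 12000 ppm (SD, n = 7 each), a log2 fold change of -2.19 ± 0.48 with an edgeR adjusted p of 0.00379, where 3.15% of probes were called lower. It did not pass with the acinar share as a covariate (-1.61, adjusted p 0.101), without the libraries over 50% acinar counts (-1.97, 0.144) or by limma-voom (-1.69). C1qc averaged 182 ± 41.1 CPM after Cr(VI) and 117 ± 14.3 CPM after captan, a log2 fold change of 0.63 ± 0.19 with an edgeR adjusted p of 0.0351, where 1.5% of probes were called higher. All 7 Cr(VI) libraries lay above all captan libraries for C1qc, as did 0.394% of probes. With library totals as the only scaling its value was -0.04, in a fit where the median of all probes was -0.78. Of 14 fits without 1 library, 9 lost the C1qc call, at values from 0.55 to 0.63: those without Cr(VI) replicate 3, 4, 5 or 6, or without captan replicate 1, 3, 4, 5 or 6.

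A ratio of counts within a library needs no scaling between libraries, and Gzma was therefore also set against C1qb in each library, a measure chosen after the levels had been seen. Because of that choice, the p-values of this ratio describe it and give no further support to the fall of Gzma. The Gzma to C1qb count ratio was 0.0738 to 0.328 after Cr(VI) with a median of 0.15, and 0.305 to 1.24 in control with a median of 0.903. Its geometric mean was 0.145 after Cr(VI) and 0.694 in control, a log2 difference of -2.26 (exact 2-sided permutation test over 792 arrangements, p = 0.00505, and 0.0253 adjusted over 5 comparisons; the smallest p possible was 0.00253). Without the libraries over 50% acinar counts 3 libraries a group were left and the log2 difference was -1.97, with an exact permutation p of 0.1, the smallest that design allows, and 0.458 after adjustment. In 4 of 12 tests without 1 library, those without control replicate 1 (-2.06), 2 (-2.05), 3 (-2.46) or 5 (-2.16), the adjusted exact p was 0.0606.

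At 16000 ppm folpet, where both Gzma and C1qb fell, the ratio had a median of 0.379 and a range of 0.132 to 1.50, against a control median of 0.903. The log2 difference of -0.87 did not pass the exact permutation test (p = 0.192, adjusted 0.48). The other 3 groups had geometric means of 0.923 after captan 6000 ppm, 0.695 after captan 12000 ppm and 0.816 after folpet 6000 ppm, against 0.694 in control, and did not pass by exact permutation, with adjusted p-values of 0.679, 0.992 and 0.679.

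The members' levels were also compared with each other library by library. Over the 40 libraries, which share their depth and scaling within each point, log2 CPM of C1qa and C1qb correlated at r = 0.78, of C1qb and C1qc at r = 0.72, and of C1qa and C1qc at r = 0.48. With group means removed these were 0.72, 0.42 and 0.17. Gzma and Gzmb correlated at r = 0.43, and at 0.44 with group means removed. Gzma correlated with the C1q chains at r = 0.05 to 0.16. Gzmb correlated with C1qa at r = 0.54, with C1qb at 0.42 and with C1qc at 0.14, and at 0.54, 0.45 and 0.065 with group means removed. Control replicate 5, which had no Gzmb count and outlying low C1qa and C1qb, enters these values. By rank the order differed: Gzmb correlated at 0.57 with Gzma, 0.40 with C1qa, 0.40 with C1qb and 0.32 with C1qc. The count ratio of C1qa to C1qb within a library had a median of 0.605 and a range of 0.364 to 0.970 over 40 libraries, and that of C1qc to C1qb a median of 0.621 and a range of 0.450 to 1.44. The 1.44 was control replicate 5, and the next highest library was Cr(VI) replicate 6 at 1.16.

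**Figure D4:**
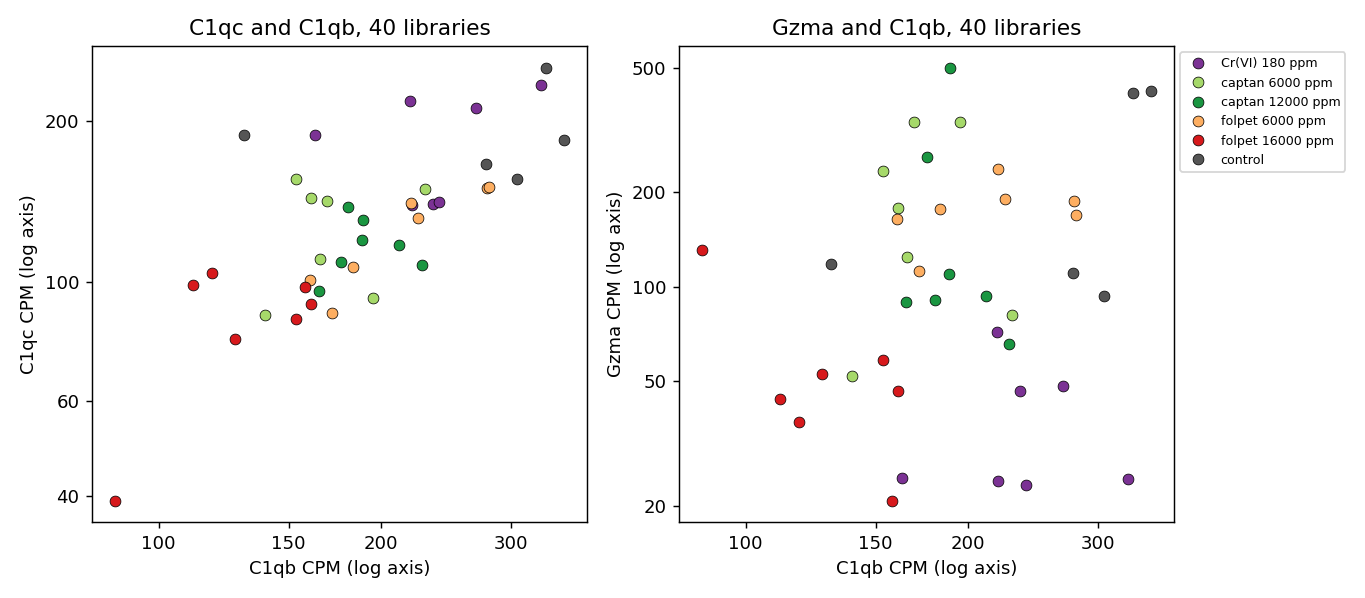
C1qc against C1qb (left) and Gzma against C1qb (right) in CPM on log axes, 1 point per library, coloured by group. C1qc follows C1qb at r = 0.72 over 40 libraries, whereas Gzma and C1qb correlate at r = 0.16, and the Cr(VI) libraries, at 23.3 to 71.8 CPM of Gzma, lie low in the right panel, where the lowest library, at 20.8 CPM, is one of folpet 16000 ppm.

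For each member, the 5 tested genes whose log2 CPM followed it most closely over the 40 libraries were taken among 2325 symbols. The C1q chains shared some of these genes, whereas Gzma and Gzmb shared none with each other or with the C1q chains. C1qb was followed by C1qa at r = 0.78, Col4a2 at 0.77, Apoe at 0.73, C1qc at 0.72 and Col6a3 at 0.67. For C1qc the highest values were 0.78 with Col6a3, 0.72 with C1qb and 0.69 with St3gal2, and for C1qa 0.78 with C1qb and 0.67 with Col4a2. Once group means were removed, C1qc correlated at 0.45 with Col6a3 and 0.25 with St3gal2. Col4a2 then correlated at 0.59 with C1qb and 0.54 with C1qa. Gzma was followed by the class I gene H2-K1 at r = 0.77, the class II gene H2-Aa at 0.67, Itgae at 0.66, Kdelr2 at 0.66 and AW112010 at 0.66. With group means removed, the Gzma value was 0.69 with H2-K1, 0.47 with H2-Aa and 0.30 with Itgae. Gzmb was followed by Serping1 at r = 0.76, F2r at 0.74 and Il13ra1 at 0.73, but its rank correlation with Il13ra1 was 0.38.

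Other genes of the same cells were read from a list of markers. Of 12 tested T cell, natural killer and cytotoxic genes, 1 fell after Cr(VI), 1 after captan 12000 ppm and 1 after folpet 16000 ppm against control, where 2.99%, 1.53% and 4.68% of all tested probes were called lower. None of the 12 rose. The gene was Itgae in each case, which encodes CD103, the integrin chain that holds intraepithelial lymphocytes to E-cadherin. By the probe with more counts it averaged 103 ± 30.1 CPM after Cr(VI), 139 ± 29.3 CPM after captan 12000 ppm and 108 ± 18.2 CPM after folpet 16000 ppm (SD, n = 7 each), against 254 ± 128 CPM in control (SD, n = 5). The log2 fold changes were -1.30, -0.88 and -1.24, with edgeR adjusted p-values of 0.000467, 0.016 and 0.000163. The median log2 fold change of the 12 genes was -0.28, -0.41, -0.75, -0.59 and -1.04 in the order Cr(VI), captan 6000, captan 12000, folpet 6000 and folpet 16000 ppm, while the median of all tested probes lay between -0.05 and 0.01. The T cell receptor genes Cd3d and Cd3g were above 0 in 7 and 25 of 40 libraries, with at most 40 and 84 counts in a library.

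Of 14 tested macrophage and myeloid genes, 1 fell in each of the comparisons with control except folpet 16000 ppm, where 2 fell, and none rose. Of all tested probes, 2.99% were called lower after Cr(VI), 1.38% and 1.53% after captan 6000 and 12000 ppm, and 1.61% and 4.68% after folpet 6000 and 16000 ppm. The median log2 fold change of the 14 genes was -0.40, -0.31, -0.80, -0.70 and -0.48 in the same order of groups. Fcgr3, an activating receptor for antibody on macrophages and natural killer cells, fell in all 5. It averaged 26.8 ± 20.2 CPM after Cr(VI), 30.2 ± 10.3 and 27.9 ± 13.9 CPM after captan 6000 and 12000 ppm, 27.2 ± 10.9 and 22.8 ± 8.25 CPM after folpet 6000 and 16000 ppm (SD, n = 7 each), and 84.5 ± 45.9 CPM in control (SD, n = 5). The 5 comparisons share those control libraries. The other gene was Csf1r, the receptor that macrophages need to survive, which was at 0 in all 7 folpet 16000 ppm libraries but above 0 in only 11 of 40 libraries in all. Tyrobp, a myeloid and natural killer signalling adaptor, was above 0 in all 40 libraries and Cd68, a lysosomal macrophage marker, in 39, and neither passed against control; S100a8 and S100a9 were at 0 throughout.

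Of 13 tested complement components and regulators, none passed against control except C3ar1, the C3a receptor, at 12000 ppm captan, a gene above 0 in 16 of 40 libraries. C1s1, a protease of the C1 complex, the central component C3 and the C1 inhibitor Serping1 did not pass. The median log2 fold change of the list was 0.24, 0.01, -0.18, 0.47 and -0.21 in the same order of groups. Of the 3 class II antigen presentation genes, Cd74, the invariant chain, fell in all 5 comparisons with control, and H2-Aa fell in all but captan 6000 ppm. The other gene, H2-DMa, did not pass. It was at 0 in every control library and above 0 in 8 of 40 libraries. Of all tested probes, 2.99%, 1.38%, 1.53%, 1.61% and 4.68% were called lower, in the same order of groups.

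Markers of some other cell types differed between the groups, and others did not. None of 5 tested endothelial genes passed in any comparison with control. Of 5 tested B cell and plasma cell genes, 1 fell at each folpet dose against control, and none passed in the other 3 exposed groups. At folpet 6000 and 16000 ppm, 1.61% and 4.68% of all tested probes were called lower. Summed over 6 enterocyte genes, the level ran from 64679 to 83577 CPM after Cr(VI), from 59062 to 82634 CPM and 63788 to 91163.5 CPM after captan 6000 and 12000 ppm, from 48637 to 100928 CPM and 72616 to 94709.5 CPM after folpet 6000 and 16000 ppm, and from 19445 to 63927 CPM in control. Of these 6 genes, 3 rose after Cr(VI), 2 and 4 after captan 6000 and 12000 ppm, and 2 and 4 after folpet 6000 and 16000 ppm. Of all tested probes, 2.95% were called higher after Cr(VI), 3.78% and 4.64% after captan 6000 and 12000 ppm, and 4.6% and 7.91% after folpet 6000 and 16000 ppm.

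Summed over 15 smooth muscle and stromal genes, the level ran from 1747 to 2519 CPM after Cr(VI), from 1315 to 2222 CPM and 1459.9 to 3122 CPM after captan 6000 and 12000 ppm, from 1431 to 2129 CPM and 1267 to 1631 CPM after folpet 6000 and 16000 ppm, and from 1969 to 3317 CPM in control. Of the 15, 1 fell after Cr(VI), 4 at each captan dose, 4 at folpet 6000 ppm and 6 at folpet 16000 ppm, beside the shares of all probes called lower given above. The acinar share ran from 4.92% to 82.1% after Cr(VI), from 1.22% to 34.97% and 1.33% to 54.2% after captan 6000 and 12000 ppm, from 1.80% to 40.2% and 14.4% to 44.8% after folpet 6000 and 16000 ppm, and from 21.2% to 77.6% in control.

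The 14 myeloid genes summed to 1828 to 3735 CPM after Cr(VI), 1469 to 2200.5 CPM and 1331 to 2305 CPM after captan 6000 and 12000 ppm, 1616 to 2258 CPM and 1155 to 2174 CPM after folpet 6000 and 16000 ppm, and 1087 to 2805 CPM in control. The 12 T cell and cytotoxic genes, which leave out Gzma and Gzmb, summed to 182 to 295 CPM after Cr(VI), 269 to 417 CPM and 217 to 364 CPM after captan 6000 and 12000 ppm, 195 to 446 CPM and 184 to 277 CPM after folpet 6000 and 16000 ppm, and 268 to 820.0 CPM in control. The part of these cell types in the members' results was not tested.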

How the data were processed

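Duodenal RNA was read by TempO-Seq in 40 libraries. The authors deposited raw counts, 1 whole number for each probe and library, and neither header nor values point to any scaling. Software named in the submitters' processing notes is bcl2fastq 2.17.1.14 and Bowtie (version absent), with build mm9. Columns were joined to samples through their titles, and groups come from the labelled treatment. A filter on low counts before deposit is neither stated nor excluded; among values above 0, 1.01% lay from 1 to 5. Reads carried no stated molecular identifier, so counts include PCR copies.

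In R 4.3.3 with edgeR 4.0.16, filterByExpr (minimum count 10, minimum total 15) kept 2541 probes. After TMM scaling, glmQLFit (robust) took all 40 libraries together with a mean for each of the 6 groups, leaving 34 residual degrees of freedom. Tests were 2-sided with Benjamini-Hochberg adjustment over all tested probes, and the SE is the log2 fold change over the square root of F. Log2 CPM used a prior count of 2. The scripts were tested on simulated data.

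Alternatives were DESeq2 1.42.0, limma-voom 3.58.1, DESeq2 size factors, library totals alone, scaling without acinar probes, no count filter, the acinar share as covariate, no libraries over 50% acinar counts, only the compared groups, and leaving out each library. The text names every member, the 5 genes with the highest correlation to each (or the first of them), and up to 4 genes per marker list; the members and lists were chosen with earlier results of these data known. Promoter windows come from the RefSeq table for GRCm38.p6, which matched 5 of the 6 members by symbol, C1qa being the other. The libraries carry no labelled batch.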

Additional observations from a re-analysis of the deposited data

Results flagged for a closer look

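In 6 of 30 groups of libraries examined, 1 library's log2 CPM lay farther from its neighbours than Dixon's test allows at 95%. Chance gives this in about 1 group in 20. The test used log2 CPM with a prior count of 2, a scale that widens gaps at low levels. The levels below are in CPM, on which it was not run. Control replicate 5, the library with few probes above 0, accounted for 3 of the 6 groups. It had 0 CPM of Gzmb where the other controls had 31.6 to 68.8 CPM, 47.7 CPM of C1qa where they had 169 to 234 CPM, and 131 CPM of C1qb where they had 277 to 355 CPM. Folpet 6000 ppm replicate 2 had 14.7 CPM of Gzmb, with 26.6 to 37.6 CPM in the rest of its group. Captan 12000 ppm replicate 5 had 61.1 CPM of C1qa, with 93.0 to 114 CPM in the rest. Folpet 16000 ppm replicate 3 had 39.2 CPM of C1qc, with 78.3 to 104 CPM in the rest.

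The response to Cr(VI) differed from that to the higher fungicide doses in edgeR's direct test of the exposed groups. Against captan 12000 ppm the log2 difference was -2.19 for Gzma and 0.63 for C1qc, and against folpet 16000 ppm it was 1.10 for C1qc and 0.87 for C1qb.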

How the results depend on the processing

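The 50 member results, of which 12 were called, were refitted under 9 alternatives. Of the 450 refits, 400 kept their direction and side of the threshold, 22 lost a call, 19 gained one and 9 changed direction. The falls at folpet 16000 ppm against control were called in 9 of 9 alternatives for C1qb, 8 for C1qc, 8 for Gzma and 7 for C1qa, and that of Gzma after Cr(VI) in 7. Where a value changed its call, the cause was not tested. Gzmb had the fewest counts of the 5, from 0 to 501 a library. No paired analysis was possible because the labels carry no replicate numbers, and those used here are names alone.

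All values that follow are log2 differences. With library totals alone, the median of all probes moved to as low as -0.78 (Cr(VI) against captan 12000 ppm) and as high as 0.44 (captan 12000 ppm against control). Calls were then lost for C1qb after captan 6000 ppm (-0.42), C1qc after captan 12000 ppm (-0.26), and C1qa (-0.90), C1qc (-1.15) and Gzma (-2.12) after folpet 16000 ppm, all against control. They were also lost for C1qb between folpet doses (-1.02) and for C1qb (0.53) and C1qc (0.84) in Cr(VI) against folpet 16000 ppm. The direction turned for Gzma after captan 6000 ppm (0.029) and C1qa after folpet 6000 ppm (0.00012), Gzmb between captan doses (0.075), and C1qa (-0.32), C1qb (-0.49) and C1qc (-0.040) in Cr(VI) against captan 12000 ppm.

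Without the libraries over 50% acinar counts, calls were lost for Gzma after Cr(VI) (-2.71), C1qc after captan 12000 ppm (-0.80), C1qc (0.68) and Gzma (-1.97) in Cr(VI) against captan 12000 ppm, and the Gzma to C1qb ratio after Cr(VI) (-1.97). They were gained for C1qb after captan 12000 ppm (-0.72) and Gzmb after folpet 16000 ppm (-2.11). Gzmb between captan doses (0.030) and the ratio after captan 12000 ppm (-0.19) and folpet 6000 ppm (-0.037) turned.

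The acinar covariate lost C1qb after captan 6000 ppm (-0.63), C1qc after captan 12000 ppm (-0.72), and C1qc (0.66) and Gzma (-1.61) in Cr(VI) against captan 12000 ppm, and turned Gzma in captan against folpet at 6000 ppm (-0.13). Fitting only the compared groups lost C1qb after captan 6000 ppm (-0.71), C1qc after captan 12000 ppm (-0.66) and C1qa after folpet 16000 ppm (-0.83). It gained Gzma (-1.68) and Gzmb (-1.37) between folpet doses and C1qa in Cr(VI) against folpet 16000 ppm (0.69). Without a count filter C1qc in Cr(VI) against captan 12000 ppm lost its call (0.62).

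Limma-voom lost Gzma after Cr(VI) (-2.28) and in Cr(VI) against captan 12000 ppm (-1.69), gained C1qa after captan 6000 ppm (-0.73) and 12000 ppm (-0.80), C1qb after captan 12000 ppm (-0.64) and C1qc after folpet 6000 ppm (-0.61), and turned Gzma in captan against folpet at 6000 ppm (-0.054). DESeq2 size factors in edgeR gained C1qc after captan 6000 ppm (-0.67) and folpet 6000 ppm (-0.68), and C1qa in Cr(VI) against folpet 16000 ppm (0.76). DESeq2 gained the same 3 (-0.67, -0.68 and 0.76), with C1qa (-0.73) and C1qb (-0.60) after captan 12000 ppm, Gzmb after folpet 16000 ppm (-1.75) and Gzma between folpet doses (-1.69).

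Leaving out 1 library gave these ranges for results that changed call or direction. After Cr(VI) C1qc ran from -0.12 to 0.090. After captan 6000 ppm C1qa ran from -0.80 to -0.40, C1qb from -0.88 to -0.59 and Gzma from -0.48 to 0.066. After captan 12000 ppm C1qa ran from -0.93 to -0.52, C1qb from -0.73 to -0.43 and C1qc from -0.75 to -0.53. After folpet 6000 ppm C1qc ran from -0.67 to -0.45 and Gzmb from -0.64 to 0.060. After folpet 16000 ppm C1qa ran from -1.09 to -0.69 and Gzmb from -1.999 to -1.31. Between captan doses Gzma ran from -0.69 to 0.054 and Gzmb from -0.89 to 0.36, and between folpet doses C1qb from -0.81 to -0.65 and Gzma from -2.03 to -1.52. In captan against folpet at 6000 ppm C1qc ran from -0.052 to 0.095, Gzma from -0.088 to 0.28 and Gzmb from -0.59 to 0.030. In Cr(VI) against captan 12000 ppm C1qc ran from 0.55 to 0.69 and Gzmb from -0.80 to 0.30, and C1qa against folpet 16000 ppm from 0.58 to 0.81. The ratio ran from -2.55 to -2.05 after Cr(VI), from -0.32 to 0.21 after captan 12000 ppm and from -0.065 to 0.44 after folpet 6000 ppm.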
